A study of Homo sapiens with 15 samples.

Results

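The guidance genes described here are the semaphorins, their plexin and neuropilin receptors, the Slit ligands and Robo receptors, and the netrins with their receptors. They were chosen by symbol: every gene named SEMA3 to SEMA7 or PLXNA to PLXND, with NRP1, NRP2, SLIT1 to SLIT3, ROBO1 to ROBO4, UNC5A to UNC5D, NTN1, NTN4, DCC, and NEO1. The rule found 46 of the 19612 gene symbols in the table. Of these, 34 reached 10 counts or more in at least 3 of the 15 libraries and are called measured. The other 12 were DCC, UNC5A, UNC5C, UNC5D, ROBO2, ROBO4, SEMA3D, SEMA3G, SEMA4A, SEMA6D, SLIT1, and SLIT3.

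RNA was sequenced from H1975, a human lung adenocarcinoma line that carries EGFR with the T790M and L858R changes, and from H1975–OR, a subline that was grown out of H1975 under osimertinib, an inhibitor of mutant EGFR. H1975–OR was routinely kept in 500 nM osimertinib, and both lines were moved to medium with charcoal-stripped serum for the 96 h of treatment. The 5 conditions of 3 libraries each were H1975 with vehicle (Samples 1a to 1c) and H1975–OR with vehicle (2a to 2c), with 100 nM 1,25(OH)2D3, the active hormone of vitamin D (3a to 3c), with 500 nM osimertinib (4a to 4c), or with both agents at these doses (5a to 5c). H1975–OR is a single subline, so its difference from H1975 and resistance to osimertinib cannot be told apart from other changes that arose in culture. With vehicle, H1975–OR also spent 96 h without the drug it was kept in, which the comparison of the lines cannot separate. The methods describe separate passages for Samples 1a to 3c and say nothing of the source of 4a to 5c.

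Semaphorins are secreted or membrane-bound proteins that were first known for repelling growing axons. Plexins are their signaling receptors, and the secreted class 3 semaphorins bind plexins of class A mostly together with a neuropilin. SEMA3E is the exception in its class, since it binds PLXND1 directly. Slit proteins act through Robo receptors, and netrins through DCC, neogenin (NEO1), and the UNC5 receptors. In epithelial tumors these proteins are studied for their parts in cell migration, adhesion, and vessel growth. SEMA3B and SEMA3F lie in a stretch of chromosome 3 that is often lost in lung cancer, and both are known as candidate growth suppressors there.

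The estimated counts of a library summed to between 4378030 and 6140120, and guidance genes took between 0.138% and 0.244% of them. Levels are given as CPM, counts per 1000000 counts of the library after TMM scaling, and levels of different genes are compared only as CPM per kilobase of transcript. The study left out Sample 3a as atypical. Sample 3a correlated with 3b and 3c at a mean r of 0.912 across genes, against 0.964 between 3b and 3c, and it took the highest share of guidance genes. All means and tests below leave it out, and its value is given where it matters. CYP24A1, a direct target of the vitamin D receptor, had a mean of 5.57 CPM in vehicle-treated H1975–OR, 1169 CPM with 1,25(OH)2D3, 6.51 CPM with osimertinib, and 884 CPM with both agents, so it followed the labelled treatments. The 11 lung epithelial markers summed to between 4603 and 5958 CPM in H1975 and between 3272 and 4403 CPM in the H1975–OR libraries. The value of 4403 CPM was that of Sample 3a. Most of each sum came from the keratins KRT7, KRT8, KRT18, and KRT19. NAPSA, SFTPB, and SFTPC were at 2.25 CPM or less in every library and were not tested.

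**Figure D1:**
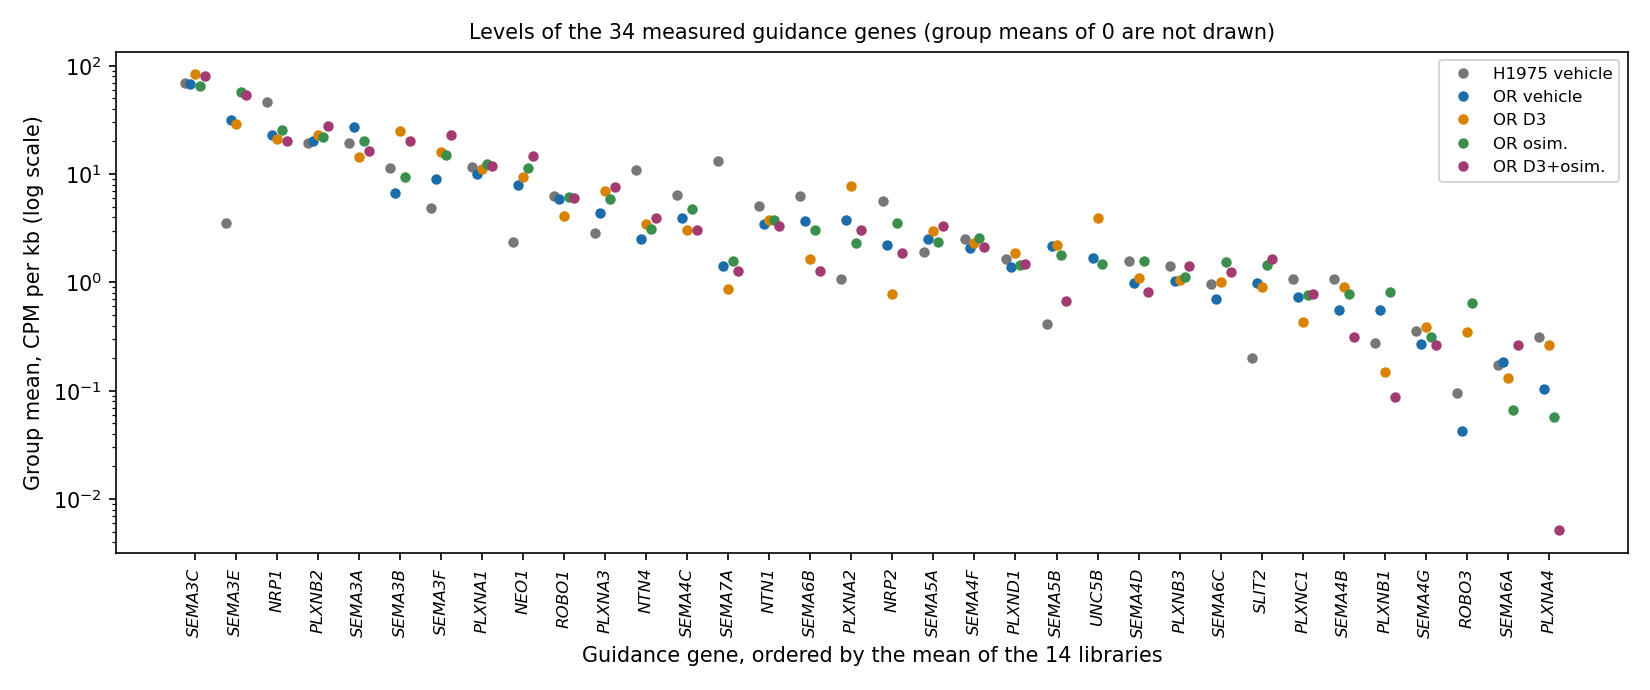
Mean level of each of the 34 measured guidance genes in each condition, in CPM per kilobase of transcript on a log scale, with one color per condition and Sample 3a left out. SEMA3C stood at the top in every condition, and SEMA3E moved from 3.54 in H1975 to 31.3 in vehicle-treated H1975–OR.

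Secreted semaphorins headed the list of levels. Over the 14 libraries, SEMA3C averaged 72.2 CPM per kilobase, SEMA3E 35.6, NRP1 27.8, PLXNB2 22.4, and SEMA3A 19.8. SEMA3B (13.8), SEMA3F (13.3), PLXNA1 (11.5), NEO1 (9.15), and ROBO1 (5.80) completed the first 10, and with the longest transcript of each gene PLXNA3 took the place of ROBO1. This order is pooled over conditions, and it differed between them below SEMA3C. In H1975 SEMA3E had 3.54 CPM per kilobase and NRP1 46.5, and SEMA7A (13.3), NTN4 (10.9), and SEMA4C (6.44) stood among the first 10 in place of SEMA3E, SEMA3F, and NEO1. In vehicle-treated H1975–OR SEMA3A (27.0) stood above NRP1 (22.9) and PLXNB2 (20.3). SEMA3B was above SEMA3F in H1975 and in H1975–OR with 1,25(OH)2D3 alone, and below it in the other H1975–OR conditions. All 9 plexins, both neuropilins, and both netrins were measured, as were 5 of 7 class 3 semaphorins and 11 of 13 membrane-bound ones. Of the receptors for Slits and netrins, ROBO1, ROBO3, NEO1, and UNC5B were measured and the others were not. DCC, the classical netrin receptor, had 3 counts or fewer in every library, which is no more than the limit that a count of 0 allows.

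The class 3 genes sit in 2 genomic clusters in GRCh38. SEMA3F (chr3:50155045-50189075) and SEMA3B (chr3:50267558-50277546) are transcribed in the same direction on the short arm of chromosome 3, and SEMA3C (chr7:80742538-80922359), SEMA3E (chr7:83363238-83649139), and SEMA3A (chr7:83955777-84492724) lie in the same order on the minus strand of chromosome 7. The bases just before the first annotated exon of SEMA3B and SEMA3F are shown because both genes were higher in every H1975–OR library with 1,25(OH)2D3 than in any with vehicle alone, and those of SEMA3E because it rose most from H1975 to H1975–OR among genes with counts in both. They are RefSeq promoter sequences of GRCh38.p14, printed 5′ to 3′ on the strand of the gene. SEMA3B (156 bases, chr3:50267402-50267557, plus strand), SEMA3F (237 bases, chr3:50154808-50155044, plus strand), and SEMA3E (250 bases, chr7:83649140-83649389, minus strand) read as follows, with motif matches in capitals.
SEMA3B: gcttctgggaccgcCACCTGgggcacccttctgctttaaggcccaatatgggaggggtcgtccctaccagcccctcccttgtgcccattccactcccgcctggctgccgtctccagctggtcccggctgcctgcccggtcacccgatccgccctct
SEMA3F: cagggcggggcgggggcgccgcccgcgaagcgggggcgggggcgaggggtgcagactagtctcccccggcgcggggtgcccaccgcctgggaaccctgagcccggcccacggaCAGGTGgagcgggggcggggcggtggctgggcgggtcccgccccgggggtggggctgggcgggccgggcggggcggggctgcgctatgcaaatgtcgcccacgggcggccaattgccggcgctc
SEMA3E: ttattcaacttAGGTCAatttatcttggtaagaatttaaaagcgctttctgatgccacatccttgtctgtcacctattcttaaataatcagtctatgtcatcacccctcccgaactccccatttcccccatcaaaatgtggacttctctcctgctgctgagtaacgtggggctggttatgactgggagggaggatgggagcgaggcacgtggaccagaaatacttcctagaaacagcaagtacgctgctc

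These windows were searched on both strands for the half-sites of the vitamin D receptor, namely the form AGGTCA, the first variant GGGTCA, the second variant AGTTCA, and the third variant GGTTCA, for 2 such half-sites spaced by 3 bases (the DR3 arrangement), and for the E-box CAGGTG. The SEMA3B and SEMA3F windows each held 1 E-box, which 12% and 16.8% of all 35116 promoter windows cut to the same lengths also held. They held no half-site, against 23% and 32.5% of all windows. The SEMA3E window held 1 half-site, AGGTCA, as did 33.8% of windows of its length with any half-site. None of the 3 windows held a DR3 arrangement, which 0.0456% to 0.0655% of windows held. These letters describe the windows alone. SEMA3B has 5 start sites in RefSeq, SEMA3F has 3, and SEMA3E has 2, and the counts do not say which were used.

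The first comparison was between the lines, both with vehicle. Of 33 guidance genes tested, 6 were higher in H1975–OR (SEMA3E, SEMA3F, SEMA5B, PLXNA2, NEO1, and UNC5B) and 4 were lower (SEMA7A, NRP1, NRP2, and NTN4), at an adjusted p under 0.05 (quasi-likelihood test of edgeR, Benjamini-Hochberg over all genes). Among all 12513 genes tested, 9.89% were called higher and 10.3% lower. The libraries of the groups did not overlap, with H1975–OR higher, for 6 guidance genes (19% of all genes) and, with H1975–OR lower, for 6 (20.3% of all genes). The median log2 fold change of the tested guidance genes was −0.25, against 0.0061 over all genes. Because these are whole cultures, a change in RNA per cell and a change in the share of cells that express a gene cannot be told apart.

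**Figure D2:**
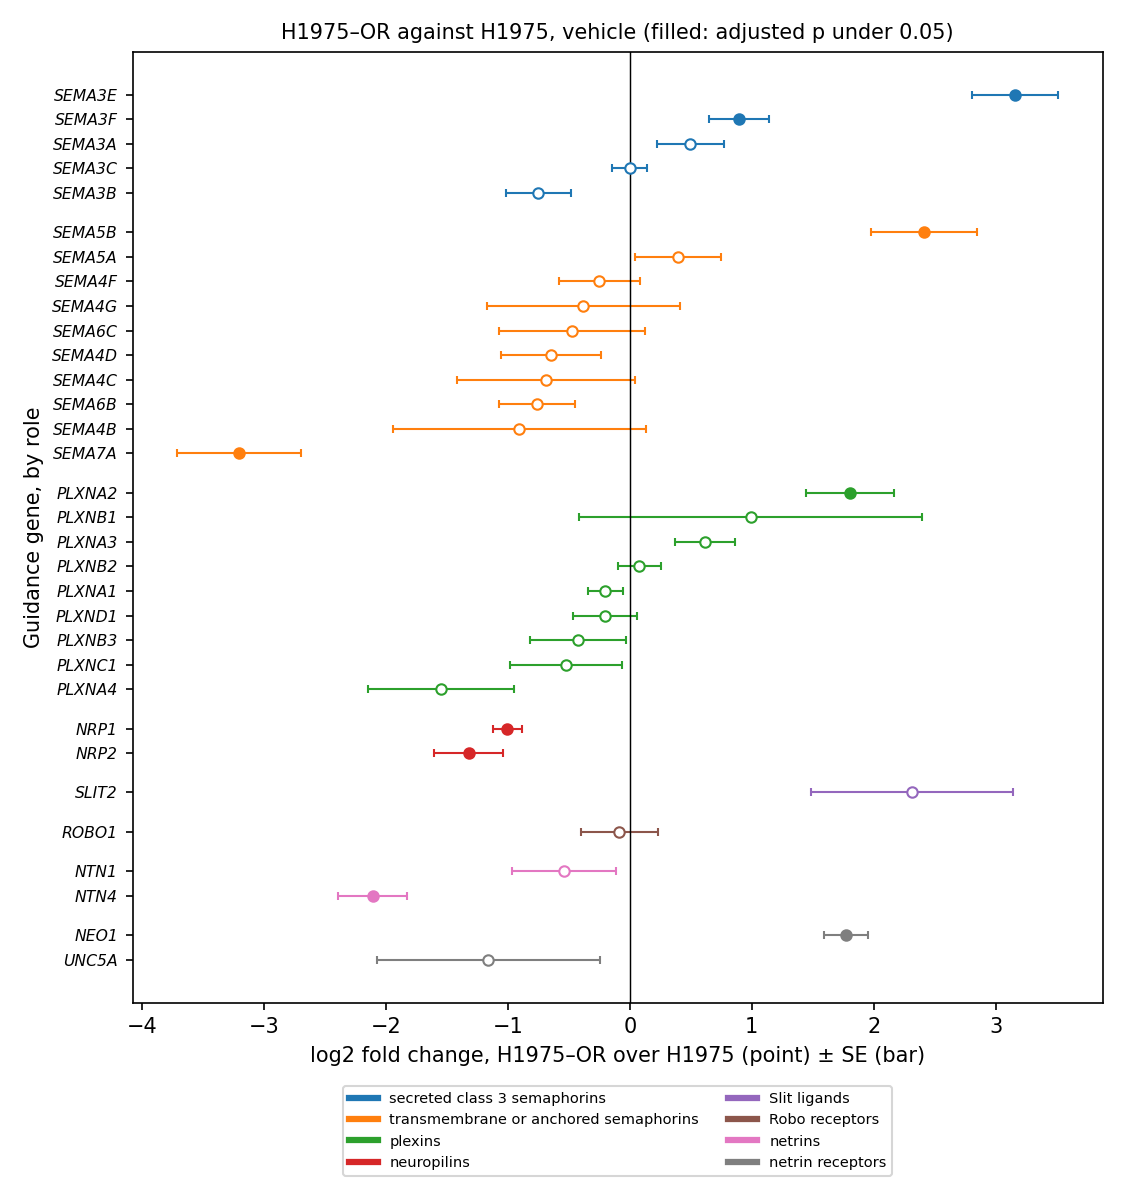
Log2 fold change of H1975–OR over H1975, both with vehicle, for 32 of the tested guidance genes by role, with bars of 1 standard error. Filled points passed an adjusted p of 0.05, and UNC5B is left out because all H1975 libraries were at 0. The class 3 semaphorins ranged from −0.75 (SEMA3B) to 3.16 (SEMA3E), and both neuropilins lay below 0.

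Among the secreted semaphorins, SEMA3E changed most. SEMA3E, the ligand of PLXND1, had 11.1, 34.8, and 31.5 CPM in Samples 1a to 1c and 203, 254, and 225 CPM in 2a to 2c. The groups lay far apart, and the log2 fold change was 3.16 (standard error, SE, 0.35, adjusted p = 0.000983 in edgeR), an 8.82-fold ratio of means. Its receptor PLXND1 had a mean of 11.3 CPM in H1975 and 9.67 CPM in H1975–OR, with overlapping libraries. SEMA3F, a ligand that acts mainly through NRP2, had 22.5, 14.2, and 16.1 CPM in H1975 and 39.6, 32.4, and 25.2 CPM in H1975–OR. The gap between the groups was small, and SEMA3F rose by a log2 fold change of 0.89 (SE 0.25, adjusted p = 0.035). It stayed past the threshold in 9 of 15 alternative analyses, and leaving out Sample 1b, 1c, 2a, or 2b ended the call (adjusted p between 0.0818 and 0.12). SEMA3B, which can also act through neuropilins, went the other way in these libraries, with 35.3, 31.0, and 42.7 CPM in H1975 and 28.8, 13.4, and 21.8 CPM in H1975–OR. These groups did not overlap, but the log2 fold change of −0.75 (SE 0.27) did not pass (adjusted p = 0.082). SEMA3A, the founding class 3 repellent, overlapped between the lines, with a high value of 331 CPM in Sample 2a alone. SEMA3C, the most abundant of them, had a mean of 334 ± 35.0 CPM (SD, n = 3) in H1975 and 331 ± 46.0 CPM (SD, n = 3) in H1975–OR, a log2 difference of −0.00050 (SE 0.14) that lay between −0.11 and 0.11 over 15 alternative analyses.

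Of the membrane-bound semaphorins, 1 rose and 1 fell among 10 tested. SEMA7A, a lipid-anchored semaphorin that signals through PLXNC1 and integrins, had 21.1, 57.9, and 55.3 CPM in H1975 and 7.56, 2.48, and 4.24 CPM in H1975–OR. Even its lowest H1975 library lay above every H1975–OR library, and SEMA7A fell by 3.21 on the log2 scale (SE 0.51, adjusted p = 0.00412). SEMA5B had 1.04, 2.73, and 2.23 CPM in H1975 and 7.56, 11.2, and 13.1 CPM in H1975–OR. These levels are low but separate, with a log2 fold change of 2.41 (SE 0.43, adjusted p = 0.00647). With Sample 3a in the fit SEMA5B no longer passed (adjusted p = 0.14), and its own value in 3a was 0.159 CPM.

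**Figure D3:**
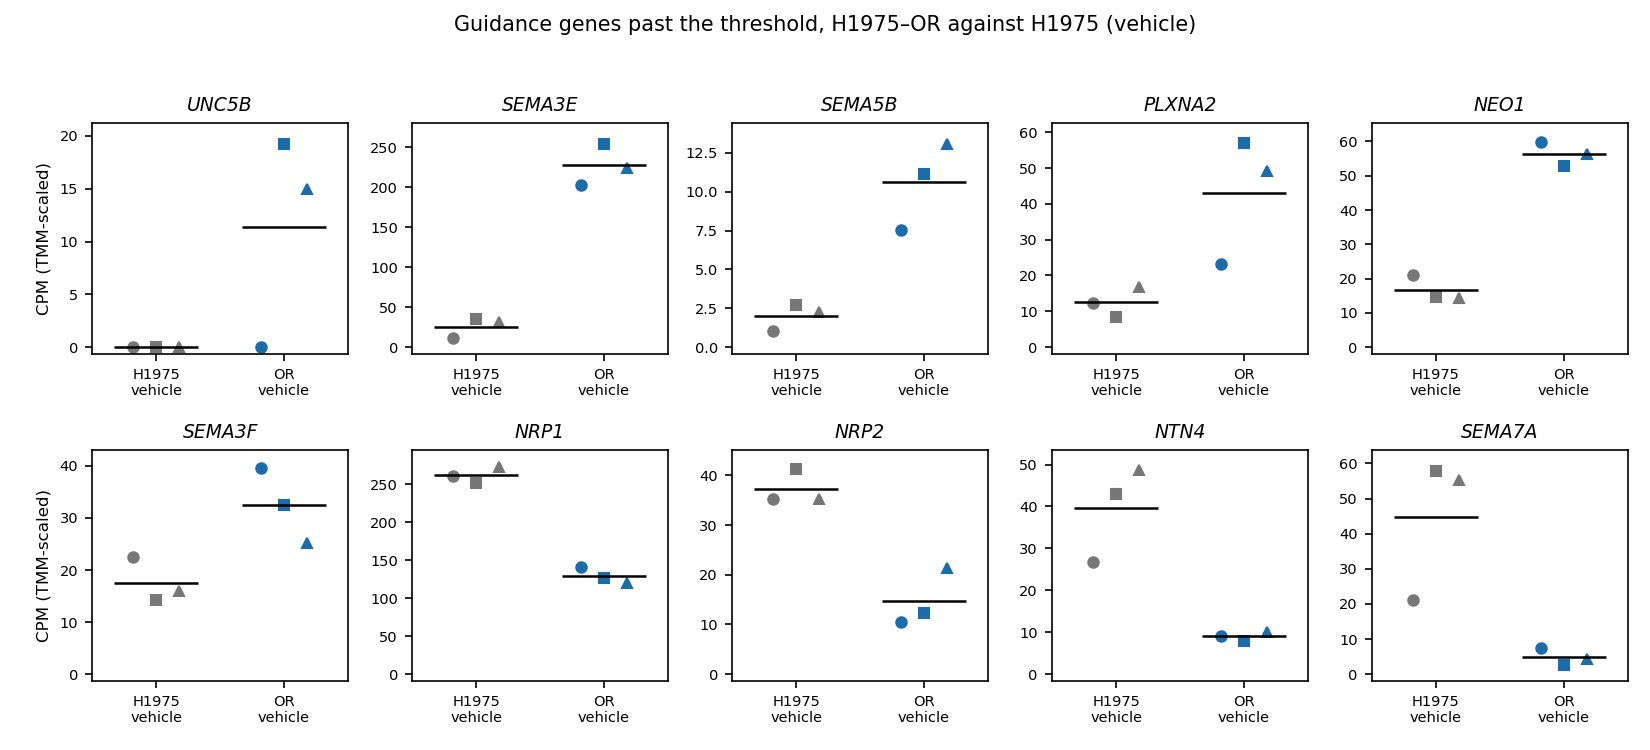
Level in CPM in each vehicle-treated library of the 10 guidance genes past the threshold between the lines, with circles, squares, and triangles for libraries a, b, and c and a bar for the mean of 3. The groups did not overlap for 9 of them, and UNC5B was at 0 in all H1975 libraries and in 1 of the 3 H1975–OR libraries.

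The neuropilins, co-receptors that class 3 semaphorins share with VEGF, were both lower in H1975–OR. NRP1 had 261, 252, and 273 CPM in H1975 and 141, 127, and 121 CPM in H1975–OR. The replicates were tight in both lines, and NRP1 fell by 1.00 on the log2 scale (SE 0.12, adjusted p = 0.00127), a ratio of 2.03 between the means. NRP2, the preferred co-receptor of SEMA3F, had 35.3, 41.3, and 35.4 CPM in H1975 and 10.4, 12.4, and 21.4 CPM in H1975–OR, and it fell by 1.32 (SE 0.28, adjusted p = 0.0128). Leaving out Sample 2b ended the call of NRP2 (adjusted p = 0.0533). Among 9 plexins, PLXNA2 alone passed. PLXNA2, a class A plexin, had 12.5, 8.37, and 16.7 CPM in H1975 and 23.1, 57.0, and 49.3 CPM in H1975–OR, so that even Sample 2a, the lowest of its group, lay above H1975. Its log2 fold change was 1.8 (SE 0.36, adjusted p = 0.00993).

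Of the netrin system, the receptor NEO1 rose and the ligand NTN4 fell. NEO1, a receptor of netrins and of repulsive guidance molecules, had 20.9, 14.7, and 14.2 CPM in H1975 and 59.9, 52.9, and 56.4 CPM in H1975–OR. It had the smallest adjusted p of the guidance genes (log2 fold change 1.77, SE 0.18, adjusted p = 0.000649). NTN4, a netrin deposited in basement membranes, had 26.8, 43.0, and 48.8 CPM in H1975 and 9.19, 7.85, and 10.0 CPM in H1975–OR. The groups were well separated, and NTN4 fell by 2.11 on the log2 scale (SE 0.28, adjusted p = 0.00204). NTN1 overlapped between the lines, from 13 to 50 CPM in H1975 and from 15.7 to 25.6 CPM in H1975–OR.

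UNC5B, a dependence receptor for netrins, is an uneven case. It had no counts in any H1975 library and 0, 19.2, and 15 CPM in Samples 2a to 2c. The mean of H1975–OR was at least 20.4-fold higher than the floor of 3 counts per library, and edgeR gave an adjusted p of 0.0371, although the groups overlapped. UNC5B entered the test only through the libraries where it was seen. It was called in 8 of 13 alternative analyses, and leaving out any single vehicle library other than 2a ended the call, with adjusted p between 0.0735 and 0.0921. SLIT2, the only measured Slit, had 0.173, 1.46, and 3.25 CPM in H1975 and 3.68, 7.44, and 12.7 CPM in H1975–OR. Its groups did not overlap, and its log2 fold change of 2.31 (SE 0.83) did not pass (adjusted p = 0.0833). ROBO1, the measured receptor of SLIT2, had means of 43.7 and 40.8 CPM in the lines.

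The proteins that work with these receptors were examined from a list of 85 other genes in the table, of which 67 were tested between the lines. There, 11 were higher and 6 were lower in H1975–OR, against the 9.89% and 10.3% of all genes given above. The cytoplasmic partners moved in both directions: DPYSL2, RRAS2, FYN, and TRIO were the 4 that rose, and SRGAP1, SRGAP2, which act below Robo receptors, and MYO10, a motor that carries DCC, were the 3 that fell. FYN, a kinase of plexin and netrin signaling, had 3.98, 7.83, and 2.64 CPM in H1975 and 24.5, 10.5, and 11.6 CPM in H1975–OR (log2 fold change 1.70, SE 0.48, adjusted p = 0.0406). Of the co-receptors and other ligands, SDC2, a heparan sulfate proteoglycan, rose most among those with counts in both lines, from a mean of 11.1 to 139 CPM (log2 fold change 3.64, SE 0.28, adjusted p = 0.000192). The related SDC1, an epithelial proteoglycan, went down from 266 to 66.3 CPM (log2 fold change −1.99, SE 0.14, adjusted p = 0.000151). L1CAM, an adhesion molecule that joins NRP1 in the SEMA3A receptor, went up from 3.94 to 21.8 CPM, and MET, a kinase that associates with plexins of class B, went down from 809 to 218 CPM. DCBLD2, a neuropilin-like protein, went down from 124 to 21.1 CPM. ITGA1, NTNG2, LRIG1, APP, and FLRT3, an UNC5 ligand, were the others that rose. FLRT3 was at 0 in all H1975 libraries and at 1.84 to 3.66 CPM in vehicle-treated H1975–OR, so, like UNC5B, it entered the test only through the line where it was seen.

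Of the markers of cell types that use guidance genes, the endothelial ones were low in both lines, and the other sets were not uniformly so. The 8 endothelial markers summed to between 3.22 and 14.8 CPM over all libraries, with CLDN5, ERG, and ESAM at 3 counts or fewer in every library. The 6 neuronal or Schwann cell markers summed to between 54.6 and 170 CPM, most of it TUBB3, and STMN2 was at 0 throughout. The value of 54.6 CPM was that of Sample 3a, and the next lowest was 60.5 CPM. The 6 fibroblast markers differed between the lines, with a sum of 14.4 to 18.9 CPM in H1975 and 44.8 to 186 CPM in H1975–OR. Its members went both ways: with vehicle, COL3A1 had means of 0.173 CPM in H1975 and 53.9 CPM in H1975–OR and PDGFRB 3.34 and 21.0 CPM, while COL1A2 had 12 and 1.02 CPM, all past the threshold. DCN and PDGFRA had means of 1.15 CPM or less in every condition. The 7 leukocyte markers summed to between 12.5 and 73.0 CPM. The value of 73.0 CPM was that of Sample 3a, where CD14 had 50.8 CPM, and the next highest was 59.4 CPM. Of the epithelial markers, CDH1 (243 CPM in H1975 and 6.93 CPM in vehicle-treated H1975–OR), EPCAM, KRT7, and KRT19 were called lower in H1975–OR and KRT18 was called higher. Of the mesenchymal markers, ZEB1 and ZEB2 were called higher, FN1 (711 and 56.1 CPM) and SNAI2 (20.5 and 9.15 CPM) were called lower, and VIM, at 2610 and 3672 CPM, overlapped between the lines (adjusted p = 0.0763 in edgeR). The part of these differences in the guidance results was not tested.

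The next comparison asked what 1,25(OH)2D3 does in H1975–OR. None of 33 guidance genes passed, in either direction, while 0.152% of all genes were called higher and 0% lower by edgeR. Without adjustment, 4 lay higher at p under 0.05 (SEMA3B, SEMA3F, PLXNA2, and PLXNA3) and 3 lower (NRP2, SEMA6B, and SEMA3A), against 3.64% and 3.63% of all genes. DESeq2 called 2, SEMA3B and NRP2, and 1.01% of all genes that it gave an adjusted p. The libraries did not overlap for 11 guidance genes on the higher side (13.2% of all genes) and 3 on the lower side (12.2%). The vehicle libraries are the same as in the comparison of the lines, so the 2 comparisons are not independent. The median log2 fold change was 0.15, against −0.0073 over all genes.

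SEMA3B came nearest to the threshold. It had 28.8, 13.4, and 21.8 CPM with vehicle and 87.6 and 71.5 CPM in Samples 3b and 3c, and Sample 3a had 111 CPM. All libraries with 1,25(OH)2D3 were thus well above vehicle, by a log2 fold change of 1.90 (SE 0.29, adjusted p = 0.0613), a 3.73-fold ratio of means. SEMA3B passed in 9 of 17 alternative analyses. Its adjusted p was 0.0307 with Sample 3a kept in, 0.0289 in a fit of the 11 H1975–OR libraries, an analysis chosen once the data were known, and 0.203 in the fit of 8 libraries with a replicate block. It was 0.0401 without Sample 2a. In the fit of 11 libraries with a replicate block, also chosen once the data were known, SEMA3B passed too. Over the 17 analyses the log2 fold change lay between 1.65 and 2.17. The antisense gene SEMA3B-AS1 overlaps it, and the strand setting of the counting is not given in the sources used here, so reads of the pair may be mixed.

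SEMA3F, next to SEMA3B on the chromosome, was at 39.6, 32.4, and 25.2 CPM with vehicle and 50.6 and 65.0 CPM with 1,25(OH)2D3, a log2 difference of 0.84 (SE 0.26, adjusted p = 0.497). The antisense gene SEMA3F-AS1 overlaps SEMA3F, so the limit given for SEMA3B holds here too. In Sample 3a SEMA3F had 106 CPM. Its co-receptor NRP2 was at 10.4, 12.4, and 21.4 CPM with vehicle and 4.72 and 5.75 CPM with the hormone. The groups did not overlap, and the log2 difference was −1.48 (SE 0.35, adjusted p = 0.285 in edgeR and 0.0317 in DESeq2). The class A plexins PLXNA2 and PLXNA3, which pair with neuropilins, lay higher. PLXNA2 was at 94.2 and 82.6 CPM with 1,25(OH)2D3, with 87.4 CPM in Sample 3a, and at 23.1 to 57.0 CPM with vehicle (log2 difference 1.04, SE 0.37, adjusted p = 0.556). PLXNA3 was at 74.2 and 77.4 CPM against 30.2 to 57.0 CPM, but LAGE3 overlaps it on the opposite strand. Genes of non-coding RNA also overlap NRP2 and PLXNA2 on the opposite strand.

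**Figure D4:**
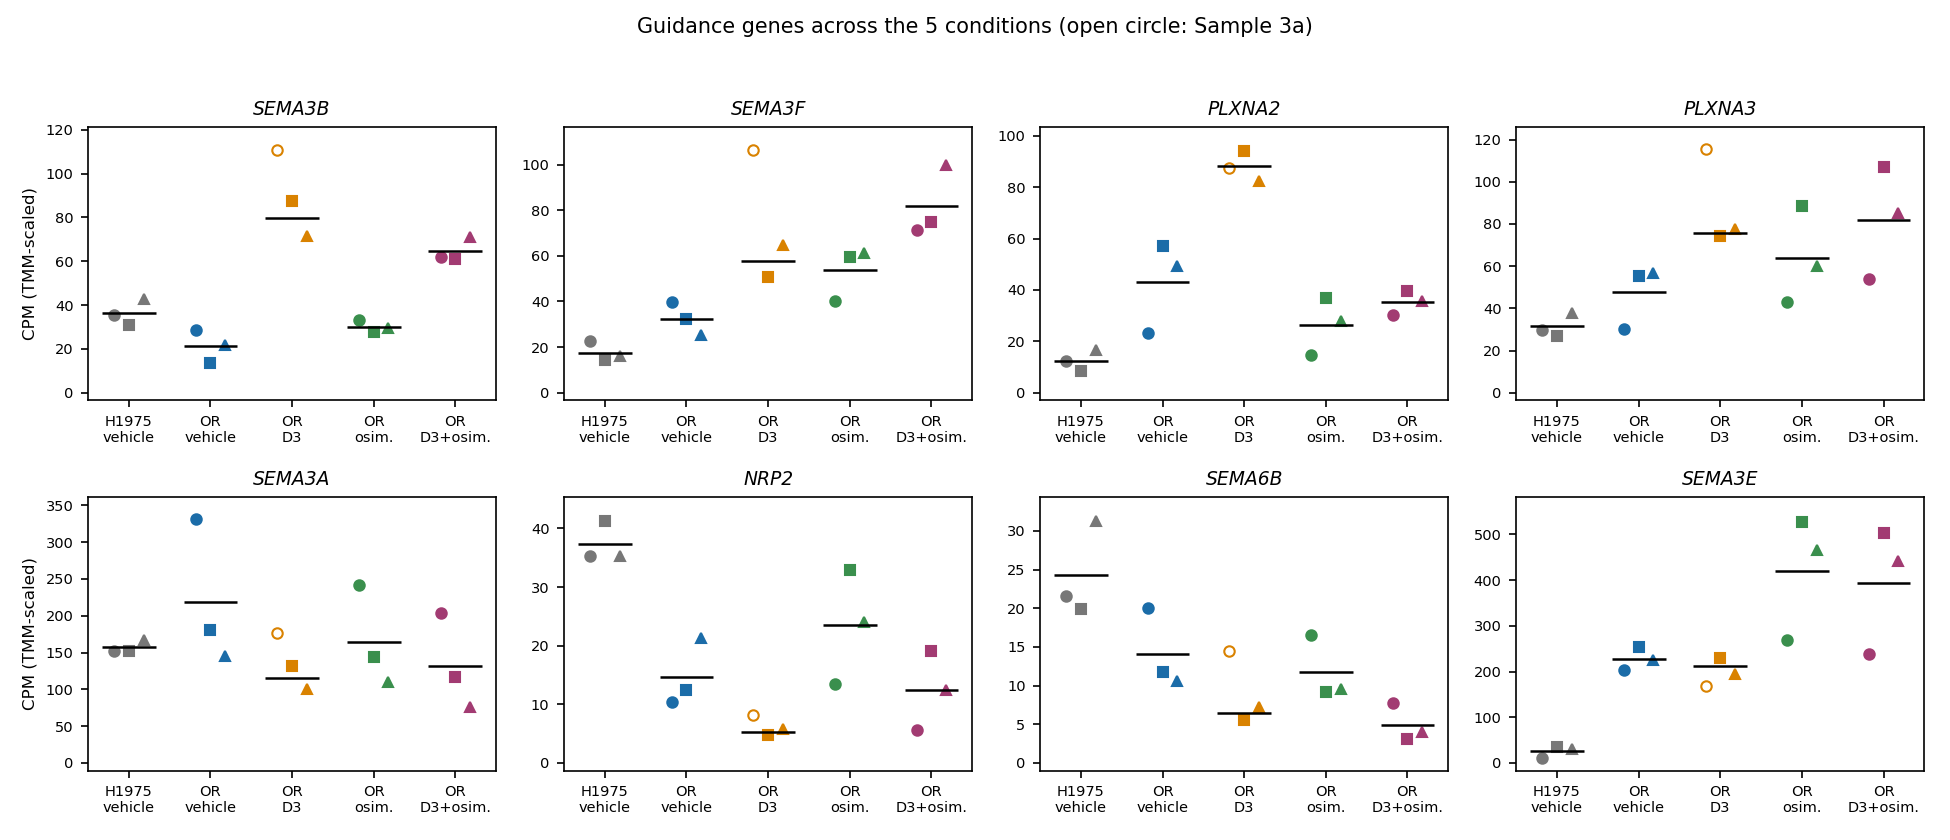
Level in CPM of 8 guidance genes in each of the 15 libraries, by condition, with circles, squares, and triangles for libraries a, b, and c, a bar for the mean, and an open circle for Sample 3a, which the mean leaves out. SEMA3B lies at 60.8 CPM or more in every library with 1,25(OH)2D3 and at 42.7 CPM or less in every other library, and SEMA3E is at 34.8 CPM or less in H1975 alone.

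SEMA3A and SEMA6B, a membrane-bound ligand of class A plexins, lay lower with 1,25(OH)2D3. SEMA3A had 331, 181, and 145 CPM with vehicle and 131 and 101 CPM in Samples 3b and 3c. The log2 difference of −0.92 (SE 0.32, adjusted p = 0.535) became −0.49 without Sample 2a, and Sample 3a, at 177 CPM, lay within the vehicle range. SEMA6B had 20.0, 11.8, and 10.6 CPM with vehicle and 5.58 and 7.24 CPM with the hormone (log2 difference −1.13, SE 0.37, adjusted p = 0.525). Its value in Sample 3a, 14.4 CPM, lay among the vehicle libraries, and with 3a kept in the log2 difference was −0.62. UNC5B had 26.2 and 27.3 CPM in 3b and 3c, 5.55 CPM in 3a, and 0, 19.2, and 15 CPM with vehicle. The log2 difference was 1.23 with an SE of 1.18, so UNC5B showed no change beyond its spread (adjusted p = 0.893). Of 67 partner genes tested, NTNG2, a membrane-anchored relative of the netrins that binds a different receptor family, was the 1 that rose, and none fell. NTNG2 had 2.66, 3.10, and 3.85 CPM with vehicle and 25.8 and 39.9 CPM in 3b and 3c, with 18.7 CPM in 3a (log2 fold change 3.35, SE 0.42, adjusted p = 0.029).

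Osimertinib was then compared with vehicle in H1975–OR, in a fit of 11 H1975–OR libraries that tested 34 guidance genes. edgeR called none of them, against 0.032% of all 12503 genes higher and 0.016% lower, and DESeq2 called none, against 0.955% of all genes. Without adjustment, SEMA3F, SEMA3E, and NEO1 lay higher at p under 0.05 and none lower, a count of 3, against 3.62% of all genes higher and 3.9% lower. These 3 and SEMA4F made up the 4 whose libraries did not overlap with osimertinib higher (5.96% of all genes), and none did so with osimertinib lower (6.81% of all genes). The median log2 fold change was 0.19, against 0.0075 over all genes. The letters of the libraries paired the samples in this comparison. With the replicate block no guidance gene passed either, and the number of all genes called went from 6 to 35.

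SEMA3E had 268, 528, and 465 CPM with osimertinib, against 203, 254, and 225 CPM with vehicle. Each treated library lay above all vehicle libraries (log2 difference 0.89, SE 0.29, adjusted p = 0.463 in edgeR). With the replicate block SEMA3E had a log2 difference of 0.83 (SE 0.15, adjusted p = 0.072). SEMA3F had 40.1, 59.7, and 61.3 CPM with osimertinib (log2 difference 0.73, SE 0.23, adjusted p = 0.44). NEO1 had 75.8, 95.5, and 73.1 CPM, against 52.9 to 59.9 CPM with vehicle (log2 difference 0.53, SE 0.18, adjusted p = 0.501). SEMA4F, a brain-type membrane-bound semaphorin, differed less, with 14.4, 17.0, and 15.7 CPM against 12.3 to 13.2 CPM. The vehicle libraries are again those of the comparison between the lines. In the partner list none of 66 genes was called, with 2 higher and 4 lower at an unadjusted p under 0.05, where the shares of all genes were the 3.62% and 3.9% above.

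With osimertinib present, the addition of 1,25(OH)2D3 was read from both agents against osimertinib. Again 0 of 34 guidance genes passed in edgeR, and 0.056% of all genes were called higher and 0.04% lower. Without adjustment, 2 lay higher (SEMA3B and SEMA3F) and 5 lower (UNC5B, SEMA6B, PLXNA4, ROBO3, and NRP1) at p under 0.05, against 2.07% and 2.09% of all genes. DESeq2 called 2, SEMA3B and UNC5B, and 0.528% of all genes. The libraries did not overlap for SEMA3B and SEMA3F on the higher side (3.82% of all genes) and for 4, UNC5B, SEMA6B, PLXNA4, and ROBO3, on the lower side (4.13%). The median log2 fold change was −0.15, against 0.0029 over all genes. PLXNA4, ROBO3, and NRP1 are named after their values were seen. ROBO3 had 24, 20, and 1 counts with osimertinib and 0 in each library with both agents. PLXNA4 had 3, 2, and 6 counts against 1, 0, and 0. Both groups thus reach into the floor of 3 counts, and these 2 separations are not resolved. UNC5B, PLXNA4, and ROBO3 entered the test only through conditions other than both agents. With the replicate block no guidance gene passed, and the number of all genes called went from 12 to 33.

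SEMA3B had 33.1, 27.8, and 29.6 CPM with osimertinib and 62.1, 60.8, and 70.9 CPM with both agents. The replicates were close, and the log2 difference was 1.09 (SE 0.24, adjusted p = 0.328 in edgeR and 0.00818 in DESeq2), a 2.14-fold ratio of means. The direction was that of 1,25(OH)2D3 alone, in libraries that comparison did not use. SEMA3F had 40.1, 59.7, and 61.3 CPM with osimertinib and 71.3, 74.7, and 99.9 CPM with both agents (log2 difference 0.60, SE 0.22, adjusted p = 1.00), again with separate groups. SEMA6B had 16.5, 9.20, and 9.60 CPM with osimertinib and 7.81, 3.05, and 4.01 CPM with both agents. The groups were separate, and SEMA6B differed by −1.25 on the log2 scale (SE 0.43, adjusted p = 0.993). PLXNA2, which stood at 88.4 CPM with 1,25(OH)2D3 alone, had 30.2, 39.7, and 35.8 CPM with both agents and 14.6, 37.0, and 27.8 CPM with osimertinib, which overlap. NRP2 overlapped as well, at 5.61 to 19.0 CPM with both agents and 13.5 to 32.9 CPM with osimertinib.

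UNC5B was at 0 counts in all 3 libraries with both agents and at 6.46, 20.9, and 3.06 CPM with osimertinib. The groups did not overlap, and with both agents the level was at least 15.1-fold lower, set against the floor of 3 counts per library. The edgeR adjusted p was 0.735 and that of DESeq2 was 0.0251. Together with Sample 2a and the H1975 libraries, UNC5B was at exactly 0 in 7 of 15 libraries and at 3.06 CPM or more in the others, with no level in between. UNC5B-AS1 overlaps it on the opposite strand.

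The difference between the effects of 1,25(OH)2D3 with and without osimertinib was tested directly in the same fit. No guidance gene was called by edgeR or DESeq2. edgeR called 0% of all genes higher and 0% lower, and DESeq2 called 0.088%. The smallest unadjusted p of edgeR's model, which is not an exact test, belonged to UNC5B (p = 0.00684), PLXNA4 (p = 0.00831), ROBO3 (p = 0.0117), and SEMA3B (p = 0.0426), all with a lower effect in the presence of osimertinib, and the adjusted p of each was 1.00. These 4 are the guidance genes under 0.05, against 1.22% of all genes with a higher and 1.42% with a lower effect, and they were named after their values were seen. SEMA3B thus had a log2 difference of 1.90 without osimertinib and 1.09 with it, and the difference of −0.81 (SE 0.35) was not resolved. PLXNA4 and ROBO3 were at 5.83 CPM or less in every library. With both agents UNC5B and ROBO3 had 0 counts in each library and PLXNA4 had 1, 0, and 0. The lower effects of UNC5B, PLXNA4, and ROBO3 therefore rest on values at the floor of 3 counts. These genes entered the test only through the other conditions.

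Some guidance genes followed the letters of the libraries, and letter was not tested against treatment. The genes listed here were picked because library a was the highest or the lowest in all 3 conditions, after their values were seen. In the H1975–OR conditions with vehicle, osimertinib, and both agents, library a was the highest of its 3 for 6 of 34 measured genes in all 3 conditions (17.6%, against 14.5% of all measured genes), and the lowest for 9 (26.5%, against 13.9%). ROBO1 is the clearest case, with 63.9, 64.6, and 64.9 CPM in Samples 2a, 4a, and 5a, and between 24.8 and 36.8 CPM in the b and c libraries of these conditions. SEMA3A had 331, 241, and 203 CPM in the a libraries and 75.9 to 181 CPM in the others. PLXNB1, a receptor of SEMA4D, had 10.8, 16.0, and 1.40 CPM in the a libraries and at most 1.64 CPM in the others. SEMA7A, SEMA6B, and PLXNC1 were also highest in a. The genes lowest in a were SEMA3E, PLXNA2, PLXNA3, NRP2, NTN1, SLIT2, SEMA5A, SEMA5B, and SEMA6C. What the letters share beyond a number is not given in the labels. Because Sample 3a is left out, the 1,25(OH)2D3 group holds no a library, so letter and treatment are partly mixed there. The replicate block in the fit of 8 libraries takes the letters as shared by H1975 and H1975–OR, although they did not pair these lines. It therefore cannot settle this. In the fit of 8 libraries with the block SEMA3A differed by −0.69 and PLXNA2 by 0.90 with 1,25(OH)2D3, against −0.92 and 1.04 without it.

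**Figure D5:**
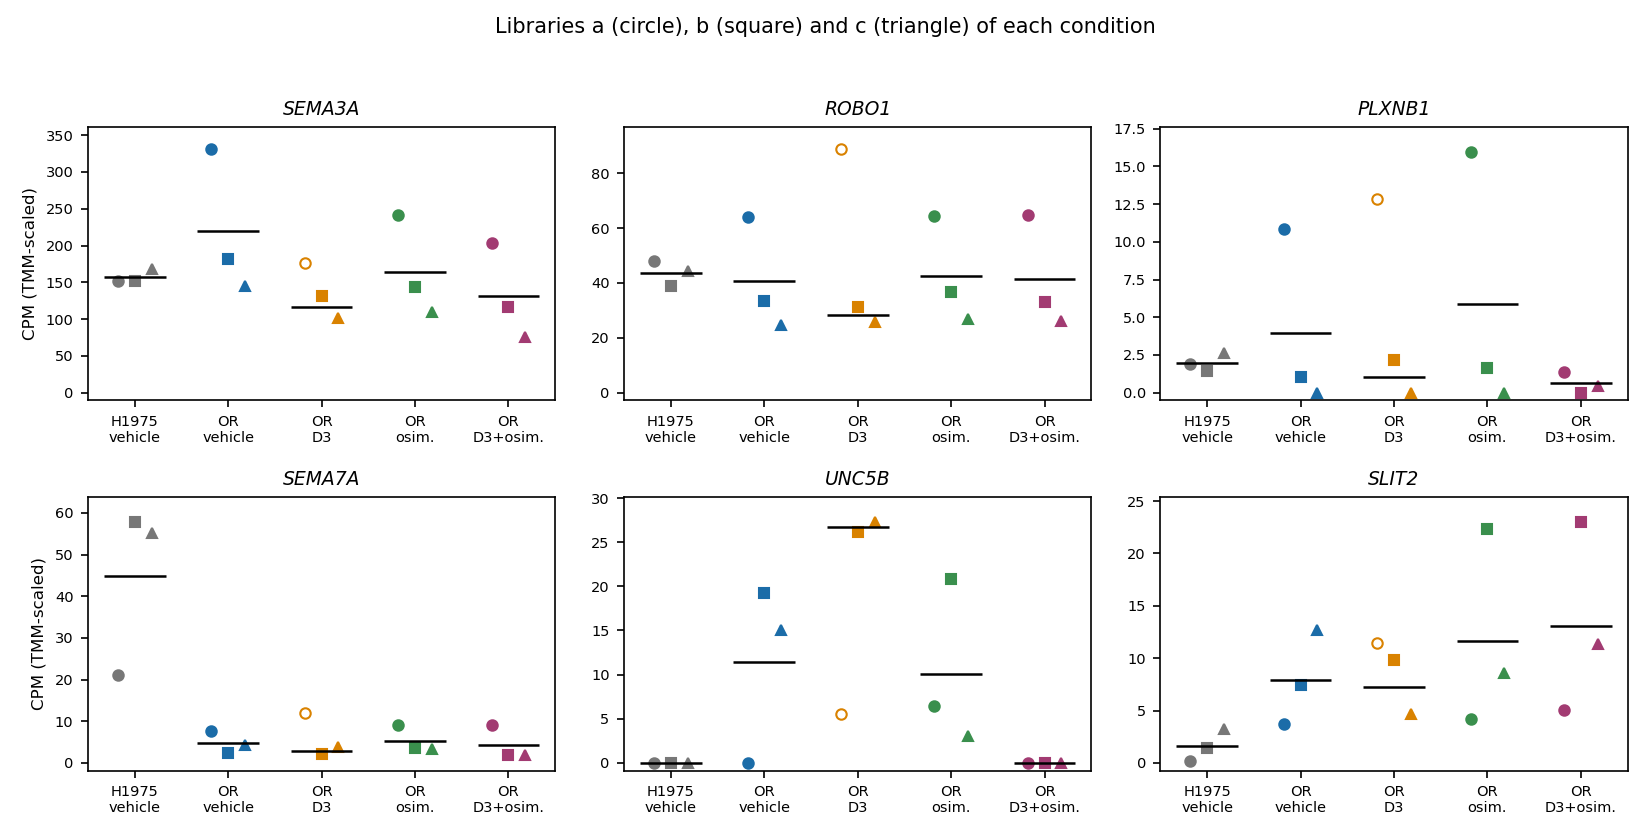
Level in CPM of 6 guidance genes in each of the 15 libraries, with circles, squares, and triangles for libraries a, b, and c of each condition, a bar for the mean without Sample 3a, and an open circle for Sample 3a. In ROBO1 the a libraries of H1975–OR lie between 63.9 and 89.0 CPM and the b and c libraries at 36.8 CPM or less, and UNC5B is at 0 in all libraries with both agents.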

How the data were processed

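Stranded total RNA libraries were sequenced in pairs of reads, assigned to GRCh38 (hg38) transcripts with kallisto 0.43.0, and summed to genes with tximport. The submitters' processing notes also name STAR 2.5.2b and CASAVA 1.8.2. The deposited values were taken as the authors' estimated counts per gene. The transcript annotation, strand setting, and tximport setting are not given in the sources used here, so any scaling within tximport is unknown.

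Rounded counts went into edgeR 4.0.16 (R 4.3.3), with filterByExpr by group (minimum count 10, minimum total 15), TMM, the quasi-likelihood test, Benjamini-Hochberg adjustment, and a two-sided threshold of 0.05. The SE given with an edgeR log2 fold change is its absolute value divided by the square root of the F statistic of the test. Sample 3a was left out, as in the study. One fit of 8 libraries served the comparisons of the lines and of 1,25(OH)2D3, and one of 11 H1975–OR libraries the other 3. Positions, exons, and transcript lengths came from GENCODE 44, which held all 46 genes and 18352 of 19612 symbols. The test was tried on simulated counts.

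The members and lists were chosen with earlier results of these data known. Named genes were those past the threshold, up to 5 that rose most and 5 that fell most per comparison without overlap and with 5 CPM or more in the higher group, the 10 highest per kilobase, partner genes past the threshold, and markers. DESeq2 1.42.0 and other settings were alternatives. Deviations of same-letter libraries from their group means correlated at r between 0.119 and 0.466 among vehicle, osimertinib, and both agents in H1975–OR, so the letters pair these samples by the data. They did not pair H1975 with H1975–OR, where the same-letter r was at most 0.086. The p-values measure the spread between these libraries, and floors of 3 counts cover counting error only.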

Additional observations from a re-analysis of the deposited data

Results flagged for a closer look

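Sample 3a, which the comparisons do not use, held the highest level of all 15 libraries for 11 of the 34 measured guidance genes, or 32.4%, against 16.1% of all measured genes. PLXNB2, the most abundant class B plexin, stood at 518 CPM there and at 211 CPM in the next library. PLXNA1 stood at 237 CPM against 137 CPM, and PLXND1 at 29.4 CPM against 13.4 CPM. ROBO1 had 89.0 CPM in Sample 3a, PLXNA3 116 CPM, SEMA3B 111 CPM, and SEMA3F 106 CPM, each between 1.06 and 1.37 times the next library. The low genes PLXNB3 (15.9 CPM), SEMA4D (10.5 CPM), SEMA4B (7.30 CPM), and SEMA4G (4.28 CPM) were also highest in Sample 3a. Sample 3a was the lowest library for 1 of the 34.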

How the results depend on the processing

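The count of guidance genes called between the lines was 10, and 8 to 12 under alternatives other than leaving out a library. It ranged from 7 (without Sample 2b) to 12 (without 2a) when each library was left out. For 1,25(OH)2D3 against vehicle the count of 0 became 2 with DESeq2. It became 1, SEMA3B, in a fit of all 14 libraries, with Sample 3a included, without any filter, and with a filter of 10 counts in each library. The fits chosen once the data were known also gave 1: the 11 H1975–OR libraries, the same with the replicate block, and 12 libraries with Sample 3a and the block. Leaving out each library gave 0 to 1, with 1 without Sample 2a. For both agents against osimertinib the count of 0 became 2 with DESeq2. The causes were not tested. With the replicate block alone the counts were 11 between the lines, where SLIT2 was added, and 0 in each of the other 4 comparisons. Between the lines the letters share only a number. None of 28 pairs of a guidance gene and a comparison followed across alternatives changed direction, nor did the 17 partner genes called between the lines. Both sets were picked by their changes in these same libraries, which made a reversal unlikely in advance, so this is no support for them. Of the 10 genes highest per kilobase, picked by level, 3 changed direction between the lines (PLXNB2, ROBO1, and SEMA3C), and 3, 4, and 4 in the treatment comparisons. Levels under 3 counts per library, the floor, were not resolved at this depth.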
